A study of Mus musculus with 16 samples.

Results

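DNA repair and DNA damage checkpoint genes were followed in RNA-seq libraries of mouse bone marrow LSK cells, the lineage-negative fraction that carries Sca1 and c-Kit and holds blood stem cells and early progenitors. The set has 49 genes of the 53342 in the deposited tables. They were chosen by name and function (the Fanconi pathway, homologous recombination, break sensing and checkpoint kinases, mismatch repair, base excision repair and end joining). Earlier results of these data were known when they were chosen. Each symbol matched 1 row. All 49 passed the filter on low counts. Mice were wild type (WT) or Gata2 +9.5(Ets)-/-, a line homozygous for a mutated Ets motif in an enhancer of Gata2, which encodes a transcription factor of blood stem and progenitor cells. All mice were on a C57BL/6J background and 8 to 14 weeks old. They received PBS or 250 mg/kg 5-fluorouracil (5-FU), and marrow was taken 10 days later. PBS was given to 5 wild-type and 5 mutant replicates, and 5-FU to 3 replicates of each genotype. Sorting kept cells without B220, CD3, CD4, CD5 and CD8, and each replicate held 3000 to 10000 cells. The labels do not say whether a replicate was 1 mouse or a pool, so p-values measure the spread between these libraries.

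5-FU blocks thymidylate synthesis and is built into RNA and DNA, and it kills dividing marrow cells, after which surviving stem and progenitor cells divide to refill the marrow. Uracil and 5-fluorouracil in DNA are removed by the glycosylases of base excision repair, while mismatch repair recognises 5-fluorouracil paired with guanine. Stalled or broken replication forks are sensed through the kinases Atr and Atm, which activate Chek1 and Chek2, and are repaired by the Fanconi pathway and by homologous recombination, both of which work mainly in S and G2 phase. Blood stem cells that lack Fanconi genes are lost over time, and inherited Fanconi defects cause bone marrow failure.

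Library totals lay between 19.37 and 28.88 times 1e6 counts. Immunoglobulin genes, which LSK cells are not known for, took 6.38 to 44.2% of counts in wild-type PBS libraries, 3.67 to 50.2% in mutant PBS libraries, 0.0419 to 0.335% in wild-type 5-FU libraries and 5.69 to 26.6% in mutant 5-FU libraries. Markers of other cells also differed between the groups, but not all in the pattern of the immunoglobulin share. The summed level of 8 plasma-cell markers was 3129 to 64790 CPM (counts scaled to 1e6 per library with TMM factors) in wild-type PBS, 1557 to 74100 CPM in mutant PBS, 137.2 to 375.9 CPM in wild-type 5-FU and 2268 to 19310 CPM in mutant 5-FU. Jchain, the joining chain of secreted antibodies, ranged from 8.54 CPM in wild-type 5-FU replicate 2 to 68580 CPM in mutant PBS replicate 3. Neutrophil markers summed to at least 2737 CPM in every PBS library and to at most 78.8 CPM in every 5-FU library. The sort genes were read in all 16 libraries: Kit ran from 95.6 to 572 CPM, and Ly6a, which encodes Sca1, from 113.9 to 3787 CPM, highest in the replicate 3 libraries of both PBS groups. Those 2 libraries also had the highest immunoglobulin shares, 44.2 and 50.2%. In wild type after 5-FU, markers called lower were 8 of 8 for plasma cells, 8 of 8 for B cells, 6 of 7 for T and NK cells, 6 of 6 for neutrophils, 5 of 7 for erythroid cells and 2 of 7 for monocytes and macrophages. Pax5, Cd3e, Cd3g, Cd2 and Slc4a1 had no count in any wild-type 5-FU library. Of 11 LSK and stem cell markers 3 were called higher and 1 lower. Over all genes tested, 14.9% were called in this comparison, in either direction. The part of other cells in the results was not tested, and in bulk samples fewer cells of a type and less RNA per cell cannot be told apart.

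**Figure D1:**
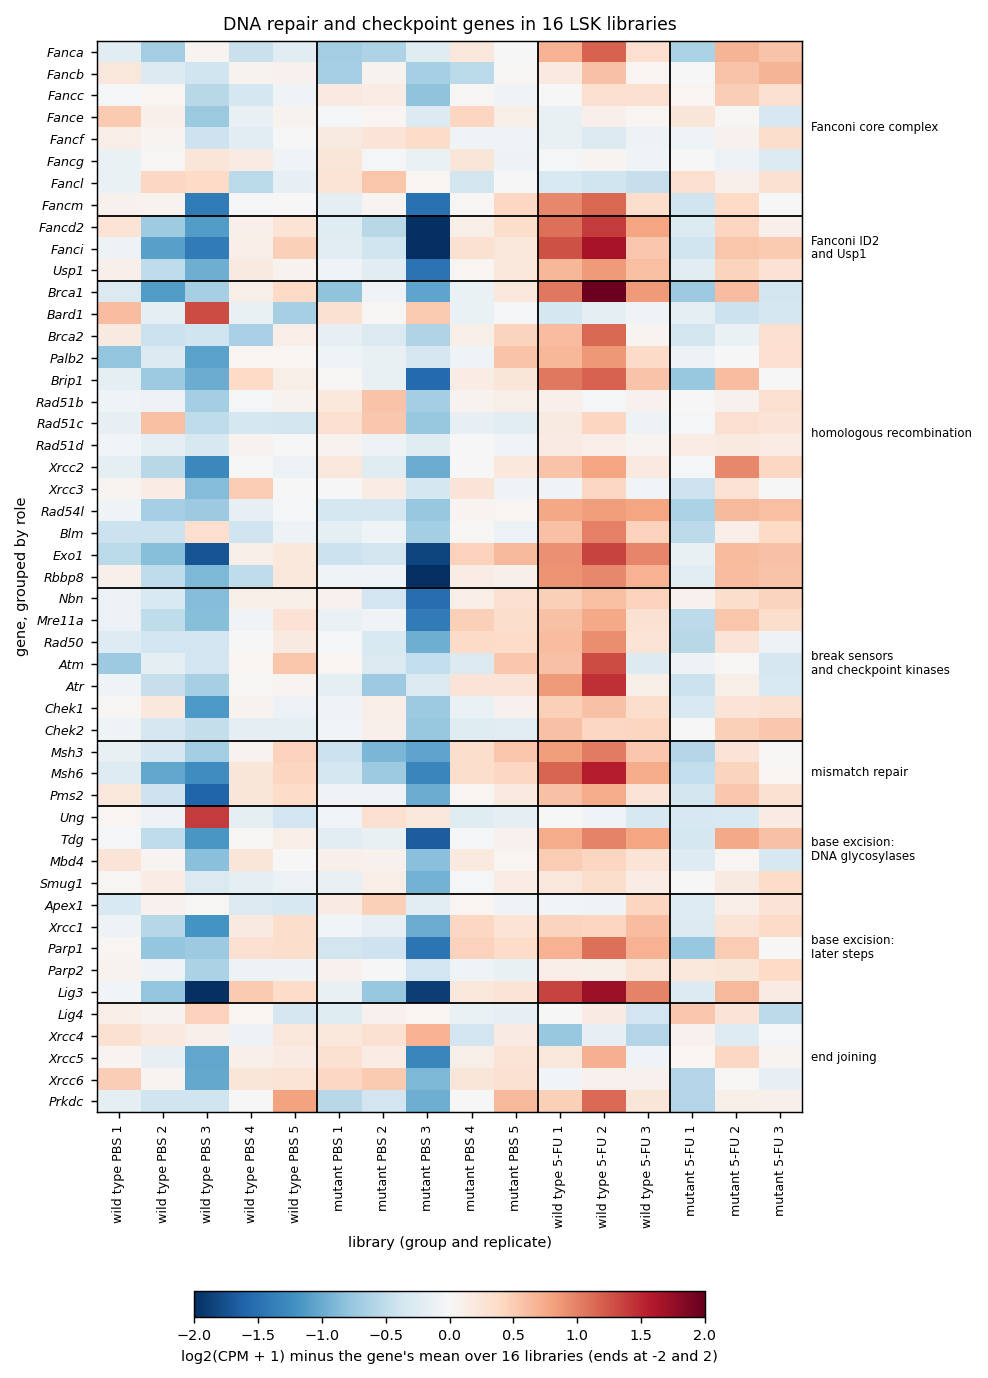
Level of each of the 49 genes (rows, grouped by role) in each of 16 libraries (columns, grouped by genotype and treatment), as log2(CPM + 1) minus the mean of that gene over all libraries, with red higher and blue lower. Wild-type 5-FU columns are mostly red, and the PBS replicate 3 columns of both genotypes are the lowest of their group for 35 and 40 genes.

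In wild type, 5-FU against PBS shows how the repair genes stood 10 days after the drug. Of the 49 genes, 11 rose and none fell at an adjusted p under 0.05 (edgeR quasi-likelihood test, Benjamini-Hochberg adjustment over 16482 genes). The 11 were Rad54l, Brca1, Brca2, Palb2, Blm and Exo1 of homologous recombination, the kinases Atr and Chek2, the Fanconi core gene Fanca, the mismatch gene Msh6 and the glycosylase Tdg. Among all genes tested 14.9% were called in either direction and 5.55% were called higher, against 22.45% of the 49. Estimates were above 0 for 40 of the 49, with a median log2 fold change of 0.70 and a range from -0.69 (Bard1) to 1.65 (Brca1), beside a median of -0.11 over all genes. The 3 libraries with 5-FU all lay above the 5 with PBS for 27 genes and all lay below for 1, Xrcc4. Of all genes tested, 16.0% stood apart upward, and the share standing apart downward was not computed. At an unadjusted p under 0.05 there were 27 of the 49, beside 6089 of all 16482 genes in either direction.

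Those calls changed with single libraries and with the immunoglobulin share. Without wild-type 5-FU replicate 2, none of the 49 was called (3.06% of all genes), and without wild-type 5-FU replicate 1 only Brca1 was (4.15%). Leaving out wild-type PBS replicate 1, 2 or 3 left 6, 5 or 7 calls, beside 10.4, 9.28 or 10.8% of all genes. Without wild-type PBS replicate 4 or 5 there were 11 or 16 calls, beside 13.9 or 19.8%. Without wild-type 5-FU replicate 3 there were 8, beside 7.97%. The 11 estimates stayed above 0 in each of these fits. With the log2 immunoglobulin share as a covariate none was called, beside 0.14% of all genes. In that fit 10 of the 11 estimates turned negative, all but Chek2. Wild-type shares with 5-FU (0.0419 to 0.335%) and with PBS (6.38 to 44.2%) do not overlap, so in wild type share and treatment cannot be told apart. With libraries under 30% immunoglobulin only, 1 gene was called, Chek2, beside 6.1% of all genes, and the 11 estimates stayed positive. Submitters' sample codes came with and without a leading zero, and all 3 wild-type 5-FU codes lacked it. Among libraries without the zero 11 genes were called (beside 14.5% of all genes), 7 of them the same. With the writing of the code as a covariate none of the 49 was called, beside 6.14% of all genes. The digits of some codes also recur across treatments, and what they stand for is not given in the sources used here. In a fit on the libraries with such recurring digits (2 PBS and 1 5-FU in wild type, 2 PBS and 3 5-FU in the mutant), none of the 49 was called in wild type, beside 0.369% of all genes. There 37 of the 49 estimates were above 0, with a median of 0.32, and the lone 5-FU library is assumed to vary like the other groups.

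**Figure D2:**
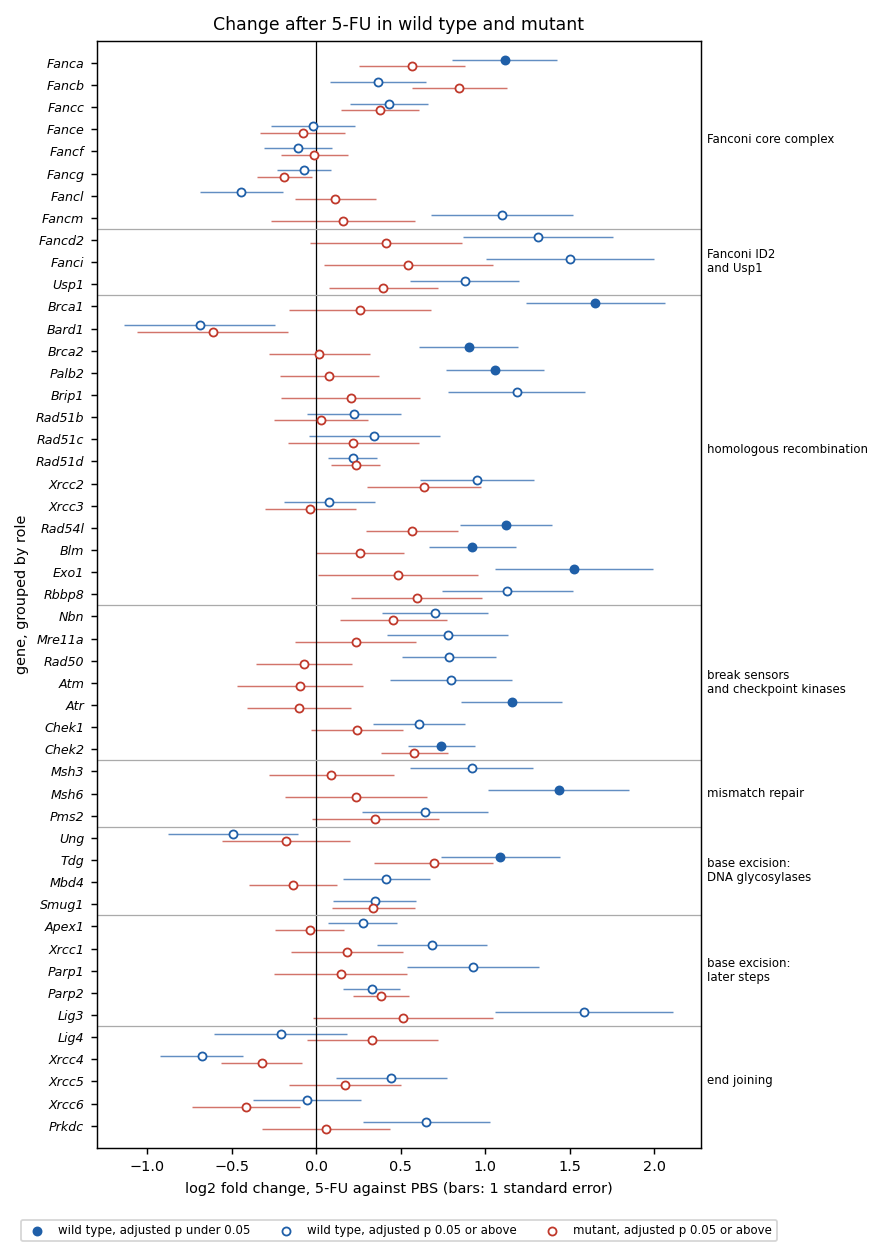
Log2 fold change of 5-FU against PBS for each of the 49 genes (rows, by role) in wild type (blue) and mutant (red), with bars of 1 standard error and filled points for an adjusted p under 0.05. The 11 filled points are all wild type and lie to the right of 0, and no mutant point is filled.

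Homologous recombination copies an intact sister strand to mend a break. The 14 genes of this role held 6 of the 11 calls, with a median log2 fold change of 0.94, and for 8 of them the 5-FU libraries all lay above the PBS libraries. Of all genes tested, 5.55% were called higher and 16.0% stood apart upward. Rad54l, a motor protein of homologous recombination that acts on DNA during strand pairing, had the smallest p. Its levels were 47.7, 31.7, 30.2, 44.9 and 49.6 CPM in wild-type PBS and 86.9, 91.3 and 88.6 CPM in wild-type 5-FU. All 3 values after 5-FU were higher than any with PBS, a rise of 1.12 ± 0.27 (SE) on the log2 scale (adjusted p = 0.0141). Brca1, which steers breaks toward recombination and is lost in hereditary breast cancer, rose most among the 49. It read 12.4, 6.52, 9.25, 16.8 and 20.6 CPM with PBS and 33.0, 62.4 and 28.5 CPM after 5-FU, so that replicate 2 of the 5-FU group was far above the other 2 but the groups did not overlap (1.65 ± 0.41 on the log2 scale, adjusted p = 0.0171).

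Palb2, the bridge between Brca1 and Brca2, read 7.40, 10.9, 5.90, 13.9 and 13.9 CPM with PBS and 21.9, 25.4 and 17.8 CPM after 5-FU (1.06 ± 0.29, adjusted p = 0.0254). Blm, the helicase mutated in Bloom syndrome, read 12.4, 12.4, 21.8, 12.7 and 15.8 CPM and 26.2, 35.1 and 24.0 CPM (0.92 ± 0.26, adjusted p = 0.0277). For both genes all 5-FU libraries were above all PBS libraries, and for Blm the highest PBS value was that of replicate 3. Exo1, an exonuclease that trims break ends and also serves mismatch repair, went from 23.2 ± 11.6 CPM (SD, n = 5) to 67.1 ± 11.5 CPM (n = 3), a log2 change of 1.53 (adjusted p = 0.0409). Brca2, a tumour suppressor of homologous recombination, was called at the edge of the threshold (0.90 ± 0.29, adjusted p = 0.0484) although its groups overlapped, with 36.0, 52.5 and 23.9 CPM after 5-FU and up to 26.2 CPM with PBS.

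Just outside the threshold stood Rbbp8, which starts end trimming (1.13, adjusted p = 0.0571), and the helicase Brip1 (1.19, adjusted p = 0.0572). The remaining genes of this role with estimates above 0 were lower: 0.95 for Xrcc2 (adjusted p = 0.0632), 0.34 for Rad51c, 0.22 for Rad51b, 0.22 for Rad51d and 0.08 for Xrcc3. Bard1, the obligate partner of Brca1, had the lowest estimate of the set, -0.69 ± 0.45 (adjusted p = 0.263). Its PBS values were 6.40, 3.20, 10.9, 3.33 and 2.05 CPM, highest in replicate 3, and its 5-FU values of 2.79, 3.19 and 3.57 CPM lay inside that range.

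**Figure D3:**
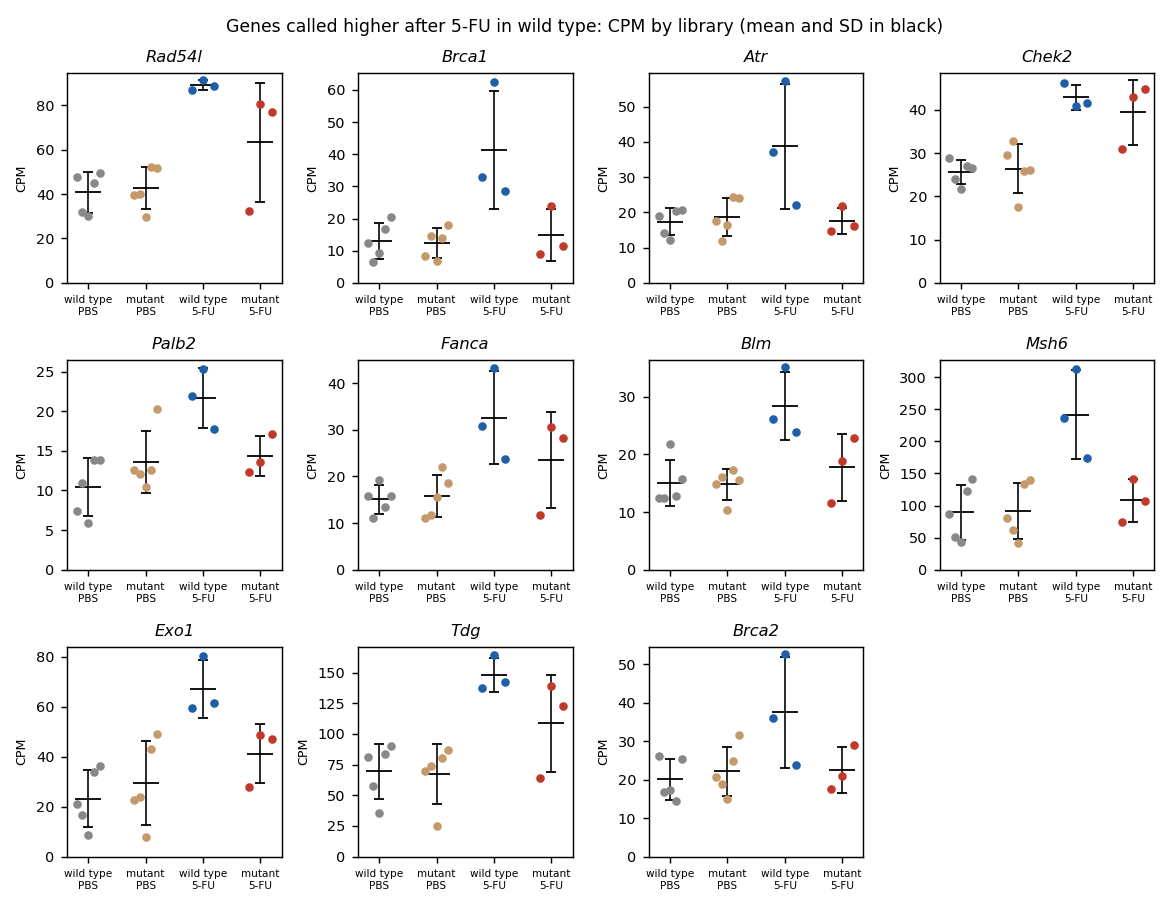
CPM of each of the 11 genes called higher after 5-FU in wild type, 1 panel per gene in order of p, with 1 point per library in 4 groups and the group mean and SD in black. For 10 of the 11 genes, all but Brca2, the 3 wild-type 5-FU points lie above all wild-type PBS points, and in every panel the mutant 5-FU points overlap the mutant PBS points.

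Promoters of the 4 genes with the smallest p in that comparison are shown because the genes rose together. RefSeq's promoter table (GRCm38.p6, 250 bases before to 50 after the start, read along the gene's strand) held 40 of the 49 genes. Capitals mark matches, on either strand, to the CCAAT box (CCAAT) and to 3 forms of the E2F site (TTTCCCGC, TTTGGCGC, TTTCGCGC), motifs known from promoters of cell cycle genes; the cell cycle homology region (TTTGAA) was searched too, and none of the 5 motifs overlaps another here. The windows are Rad54l at chr4:116123641-116123940 (minus strand), Brca1 at chr11:101551906-101552205 (minus), Atr at chr9:95857347-95857646 (plus) and Chek2 at chr5:110839733-110840032 (plus). In GENCODE M21 (GRCm38) the genes span chr4:116094264-116123690 (Rad54l), chr11:101488764-101551955 (Brca1), chr9:95857597-95951781 (Atr) and chr5:110839979-110874145 (Chek2).
Rad54l: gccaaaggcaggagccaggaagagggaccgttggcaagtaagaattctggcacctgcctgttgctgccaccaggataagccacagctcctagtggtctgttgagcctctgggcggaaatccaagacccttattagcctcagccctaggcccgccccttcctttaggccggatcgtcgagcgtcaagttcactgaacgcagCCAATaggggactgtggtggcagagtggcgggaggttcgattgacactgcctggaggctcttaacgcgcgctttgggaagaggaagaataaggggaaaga
Brca1: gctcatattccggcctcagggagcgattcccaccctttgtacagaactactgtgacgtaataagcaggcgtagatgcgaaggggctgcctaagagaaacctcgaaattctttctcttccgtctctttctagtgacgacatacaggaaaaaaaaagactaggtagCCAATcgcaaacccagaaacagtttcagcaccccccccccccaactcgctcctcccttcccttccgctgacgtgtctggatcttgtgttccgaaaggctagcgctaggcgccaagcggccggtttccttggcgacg
Atr: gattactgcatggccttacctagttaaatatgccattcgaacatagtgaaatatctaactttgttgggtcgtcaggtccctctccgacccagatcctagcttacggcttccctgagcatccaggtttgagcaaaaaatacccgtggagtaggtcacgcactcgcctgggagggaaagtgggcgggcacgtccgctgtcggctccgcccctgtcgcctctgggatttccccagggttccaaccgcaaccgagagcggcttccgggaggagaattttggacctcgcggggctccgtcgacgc
Chek2: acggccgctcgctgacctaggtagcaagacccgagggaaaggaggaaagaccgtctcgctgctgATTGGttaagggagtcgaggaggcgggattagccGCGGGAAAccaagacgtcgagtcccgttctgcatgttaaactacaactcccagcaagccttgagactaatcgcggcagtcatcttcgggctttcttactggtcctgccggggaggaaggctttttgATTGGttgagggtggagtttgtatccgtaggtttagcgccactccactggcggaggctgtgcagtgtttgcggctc
Rad54l and Brca1 each held 1 CCAAT box upstream of the start, with its first base at position -50 and -86 from the start. Chek2 held 2 CCAAT boxes and 1 E2F site, all on the opposite strand. Atr held no match. Genes can have more than 1 start in the table, and a gene was counted where any of its starts held a match. A CCAAT box was present for 8 of the 10 called genes in the table, for 17 of the 30 others of the set and for 42.6% of the 11202 tested genes in the table. An E2F form was present for 3 of the 10 called (Brca2, Chek2, Msh6), for 5 of the 30 others and for 3.82% of the tested genes. TTTGAA was present for 0 of the 10 called, for 2 of the 30 others and for 14.8% of the tested genes. Counted per promoter, over all 32851 in the table, the shares were 37.4, 1.84 and 17.9%. Of 24 genes of the cell cycle lists described further on, 79.2% had a CCAAT box, 29.2% an E2F form and 37.5% TTTGAA. A match describes these letters and is not a measured binding site.

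Break sensors and checkpoint kinases were all above 0 in wild type, with log2 estimates from 0.61 to 1.16 and an unadjusted p under 0.05 for all 7, a level that 6089 of all 16482 genes reached. Of the 7, 2 were called, where 5.55% of all genes tested were called higher. Atr, the kinase that answers to single-stranded DNA at stalled forks, read 18.9, 14.3, 12.2, 20.5 and 20.8 CPM with PBS and 37.0, 57.3 and 22.0 CPM after 5-FU. Replicate 3 was barely above the highest PBS value and replicate 2 was the highest, and the change was 1.16 ± 0.30 (adjusted p = 0.0197). Chek2, the effector kinase downstream of Atm, was much tighter: 28.9, 24.1, 21.6, 27.0 and 26.6 CPM with PBS and 46.2, 40.9 and 41.5 CPM after 5-FU, a smaller change of 0.74 ± 0.20 (adjusted p = 0.0217) with no overlap.

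Chek1, the effector of Atr, read 32.5, 36.9, 13.8, 33.6 and 29.4 CPM with PBS and 44.6, 48.5 and 40.9 CPM after 5-FU. The groups did not overlap, but the change of 0.61 ± 0.27 missed the threshold (adjusted p = 0.118), with PBS replicate 3 the lowest value. Atm, the kinase that answers to double-strand breaks, read 6.00, 9.28, 7.89, 10.9 and 16.0 CPM and 16.3, 27.5 and 8.55 CPM, and its groups overlapped (0.80 ± 0.36, adjusted p = 0.125). The 3 parts of the break sensor, Mre11a, Rad50 and Nbn, had estimates of 0.78, 0.79 and 0.70, each with all 5-FU libraries above the PBS libraries and with adjusted p of 0.126, 0.0643 and 0.120.

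Fanconi core genes, whose products form a ligase that helps repair crosslinked DNA, had estimates of both signs, 4 above 0 and 4 below. Of the 8, 1 was called higher, while 5.55% of all genes tested were called higher. Fanca read 15.8, 11.1, 19.3, 13.4 and 15.7 CPM with PBS and 30.7, 43.3 and 23.8 CPM after 5-FU, without overlap (1.12 ± 0.31, adjusted p = 0.0276). Fancm, the anchor that binds the fork, had 1.10 ± 0.42 (adjusted p = 0.0798). Fancl, the catalytic ligase subunit, had -0.44 ± 0.24 (adjusted p = 0.191), and Fance, Fancf and Fancg had -0.02, -0.11 and -0.07. Estimates for Fancb and Fancc were 0.37 and 0.43. The clamp that the ligase marks, Fancd2 with Fanci, and Usp1, which removes the mark, stood higher in every 5-FU library but were not called. Fancd2 read 17.5, 8.40, 6.08, 15.5 and 17.5 CPM with PBS and 32.1, 39.5 and 25.5 CPM after 5-FU (1.31, adjusted p = 0.0557). For Fanci the change was 1.50 (adjusted p = 0.0513) and for Usp1 0.88 (adjusted p = 0.0699).

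Mismatch repair had 1 call of 3, where 5.55% of all genes tested were called higher. Msh6, which helps recognise single mismatches, read 87.3, 50.4, 43.6, 123 and 141 CPM with PBS and 236, 313 and 174 CPM after 5-FU, without overlap (1.44 ± 0.42, adjusted p = 0.0324). Its PBS values were lowest in replicates 2 and 3. Msh3, the partner for larger loops, had 0.92 ± 0.36 (adjusted p = 0.0864), and the downstream factor Pms2 had 0.65 ± 0.37 (adjusted p = 0.213).

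The 4 glycosylases that cut uracil, thymine or 5-fluorouracil out of DNA differed among themselves. Tdg, which acts on bases paired with guanine, read 80.9, 57.3, 35.9, 83.3 and 90.2 CPM with PBS and 138, 164 and 142 CPM after 5-FU, and all 5-FU libraries were higher (1.09 ± 0.35, adjusted p = 0.0477). Ung, the main uracil glycosylase, read 8.34, 7.46, 23.0, 7.07 and 5.97 CPM and 8.11, 7.66 and 6.27 CPM. Its 5-FU values lay inside the PBS range, which PBS replicate 3 stretched upward (-0.49 ± 0.38, adjusted p = 0.355). Mbd4, the glycosylase of methylated sites, read 33.4, 28.8, 15.1, 33.0 and 28.0 CPM and 39.7, 37.5 and 33.5 CPM, apart by a narrow margin and not called (0.42 ± 0.26, adjusted p = 0.242). Smug1, another uracil glycosylase, read 11.5, 12.6, 8.98, 9.65 and 10.3 CPM and 13.3, 14.6 and 12.6 CPM, and the 5-FU values met the top of the PBS range (0.35 ± 0.25, adjusted p = 0.306).

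None of the 5 genes of the later base excision steps was called. Lig3, the ligase that seals the nick, had the second largest estimate of the 49 but did not pass the threshold, and its PBS values spread widely. Its values were 30.4, 17.9, 5.35, 45.9 and 41.2 CPM with PBS and 82.4, 108 and 64.3 CPM after 5-FU (1.59 ± 0.53, adjusted p = 0.0524). Parp1, the sensor of strand breaks, had 0.93 ± 0.39 (adjusted p = 0.101), the scaffold Xrcc1 0.69 ± 0.33 (adjusted p = 0.139), Parp2 0.33 ± 0.17 (adjusted p = 0.164) and the endonuclease Apex1 0.28 ± 0.20 (adjusted p = 0.325).

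End joining, which rejoins broken ends without a template and works in resting cells too, was the 1 role with a median below 0 (-0.05, 0 of 5 called). Xrcc4, the partner of the ligase Lig4, was the 1 gene of the 49 whose 5-FU libraries all lay below the PBS libraries: 17.8, 16.5, 15.2, 13.0 and 16.7 CPM with PBS and 7.96, 12.6 and 9.16 CPM after 5-FU. The change of -0.68 ± 0.24 was not past the threshold (adjusted p = 0.0683). Lig4 had -0.21, the Ku proteins Xrcc5 and Xrcc6 had 0.45 and -0.05, and the kinase Prkdc had 0.65, each with an adjusted p above that of Xrcc4. No test of the difference between roles was made.

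In the mutant, 5-FU against PBS called none of the 49, while 2.2% of all genes tested were called. At an unadjusted p under 0.05 there were 3 (Fancb, Chek2 and Parp2), beside 2159 of all 16482 genes. Estimates were above 0 for 36 of the 49, with a median of 0.22, beside -0.03 over all genes. That median rested partly on single libraries: it was 0.04, with 26 of 49 above 0, without mutant PBS replicate 3, and 0.36, with 41 above 0, without mutant 5-FU replicate 1. Among libraries under 30% immunoglobulin it was 0.02, with 26 above 0. The 5-FU libraries all lay above the PBS libraries for 2 genes, Parp2 and Rad51d, and all lay below for Bard1. Of all genes, 5.05% stood apart upward, and the share standing apart downward was not computed. Limma-voom with sample quality weights called 2, Fancb and Chek2, beside 9.38% of all genes. DESeq2 called 0, beside 5.4%.

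Fancb, a core complex gene on the X chromosome, had the smallest p here. It read 4.83, 8.79, 4.84, 5.40 and 8.47 CPM with PBS and 8.26, 12.8 and 13.9 CPM after 5-FU, and replicate 1 after 5-FU was inside the PBS range (0.85 ± 0.28, adjusted p = 0.162). Chek2 read 29.5, 32.8, 17.6, 25.8 and 26.1 CPM and 30.9, 42.9 and 44.7 CPM, again with only replicate 1 inside the PBS range (0.58 ± 0.20, adjusted p = 0.169). Parp2, a strand break sensor related to Parp1, read 73.5, 69.8, 52.9, 65.1 and 62.3 CPM and 80.4, 82.0 and 91.1 CPM, without overlap (0.38 ± 0.17, adjusted p = 0.329). Rad54l read 39.5, 40.0, 29.7, 52.4 and 51.9 CPM and 32.5, 80.4 and 77.1 CPM, and replicate 1 after 5-FU lay near the bottom of the PBS range, below the other 2 (0.57 ± 0.27, adjusted p = 0.392).

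Tdg in the mutant read 70.0, 73.5, 25.2, 80.0 and 86.9 CPM with PBS and 64.1, 139 and 123 CPM after 5-FU, replicate 1 inside the PBS range and the other 2 above it (0.69 ± 0.35, adjusted p = 0.433). Atr and Atm had estimates near 0, -0.10 ± 0.31 and -0.10 ± 0.37, Chek1 had 0.24 ± 0.27, and Ung, Mbd4 and Smug1 had -0.18, -0.14 and 0.34, none of them called. Mutant 5-FU replicate 1 was the lowest of its group for 40 of the 49 genes and had the highest immunoglobulin share of the group, 26.6% against 16.9 and 5.69%. Without it, the count of called genes was still 0.

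Under PBS, mutant against wild type called none of the 49, had 0 at an unadjusted p under 0.05 (541 among all 16482 genes) and DESeq2 called 0 too; 0.0182% of all genes tested, 3 in number, were called. The median estimate was 0.04 and the range -0.32 (Ung) to 0.39 (Palb2). Palb2 read 7.40, 10.9, 5.90, 13.9 and 13.9 CPM in wild type and 12.6, 12.1, 10.4, 12.6 and 20.3 CPM in the mutant, overlapping widely (0.39 ± 0.26, adjusted p = 1.00). Apex1 read 159, 208, 199.6, 161 and 156 CPM in wild type and 219, 274, 170.0, 202 and 185 CPM in the mutant (0.25 ± 0.18). The adjusted p of all 49 was 1.00. Fancf and Fancb had 0.23 ± 0.17 and -0.31 ± 0.25, and the 4 kinases Atm, Atr, Chek1 and Chek2 had 0.02, 0.11, 0.00 and 0.04.

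After 5-FU, mutant against wild type called none of the 49, while 1.95% of all genes tested were called. The median estimate was -0.37, beside 0.07 over all genes, and 39 of the 49 were below 0. Without mutant 5-FU replicate 1 the median was -0.18, with 34 below 0. With the log2 immunoglobulin share as a covariate it was 0.72, with 42 of 49 above 0, and with the writing of the sample code as a covariate 0.04, with 25 above 0. After 5-FU the shares of wild type (0.0419 to 0.335%) and mutant (5.69 to 26.6%) do not overlap, so share and genotype cannot be told apart there. All mutant 5-FU codes have the leading zero and no wild-type 5-FU code has it, so after 5-FU genotype and code writing cannot be told apart. The digits of the codes do not recur across genotypes, under PBS or after 5-FU. Genotype and code digits thus cannot be told apart in either comparison of genotypes. At an unadjusted p under 0.05 there were 8 (3034 among all genes). For 19 genes the 3 mutant libraries all lay below the 3 wild-type libraries and for 2, Fancf and Fancl, all above. Of all genes, 18.0% stood apart downward, and the share standing apart upward was not computed. Atr had the smallest p: 37.0, 57.3 and 22.0 CPM in wild type and 14.6, 21.8 and 16.1 CPM in the mutant, the highest mutant value just under the lowest wild-type value (-1.14 ± 0.34, adjusted p = 0.102). Brca1 read 33.0, 62.4 and 28.5 CPM and 8.89, 24.0 and 11.6 CPM, without overlap (-1.48 ± 0.48, adjusted p = 0.128).

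Msh6 read 236, 313 and 174 CPM in wild type and 74.0, 142 and 108 CPM in the mutant (-1.16 ± 0.48, adjusted p = 0.217), again without overlap. Fancl went the other way, 20.6, 19.3 and 18.4 CPM in wild type and 32.2, 27.5 and 31.8 CPM in the mutant (0.65 ± 0.27, adjusted p = 0.216). Chek2, in contrast to Atr, had nearly equal means, 42.9 ± 2.88 CPM (SD, n = 3) in wild type and 39.5 ± 7.51 CPM (n = 3) in the mutant (-0.12 ± 0.22). Atm and Chek1 had -0.87 ± 0.42 and -0.37 ± 0.31, and the glycosylases Tdg, Mbd4, Smug1 and Ung had -0.45, -0.59, -0.05 and -0.01. The call depended on the fit: DESeq2 called 2 (Atr and Brca1), beside 8.12% of all genes, a fit on these 6 libraries alone called 7, beside 14.1%, and limma-voom with sample quality weights called 17, beside 30.8%. With libraries under 30% immunoglobulin only, all 6 of these stayed in and 11 of the 49 were called, beside 17% of all genes. Plasma-cell markers differed in the same comparison, with 6 of 8 called higher in the mutant, beside 1.95% of all genes called. Called higher too were 3 of 8 markers of B cells and 4 of 7 of T and NK cells. Monocytes and macrophages had 1 of 7, erythroid cells 1 of 7 and neutrophils 0 of 6. Of 11 LSK and stem cell markers 2 were called lower, Cd34 and Flt3. The part of other cells in these differences was not tested.

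The interaction asks whether the change after 5-FU differed between genotypes, and it called none of the 49, beside 0.589% of all genes; DESeq2 called 0. The median estimate, mutant change minus wild-type change, was -0.40, beside 0.08 over all genes, and 40 of the 49 were below 0. It was 0.74, with 40 of 49 above 0, with the log2 immunoglobulin share as a covariate, -0.05, with 23 above 0, with the writing of the sample code as a covariate, and -0.10, with 19 above 0, among libraries with recurring code digits. It was -0.21 without mutant 5-FU replicate 1 and -0.60 without mutant PBS replicate 3. At an unadjusted p under 0.05 there were 4 (1788 among all genes). Atr had -1.26 ± 0.43 (adjusted p = 0.252), Palb2 -0.98 ± 0.42 (adjusted p = 0.389), Brca1 -1.39 ± 0.60 (adjusted p = 0.400) and Rad50 -0.86 ± 0.40 (adjusted p = 0.453). The estimate for Chek2 was -0.16 ± 0.28. So the calls in wild type and their absence in the mutant were not shown to differ.

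**Figure D4:**
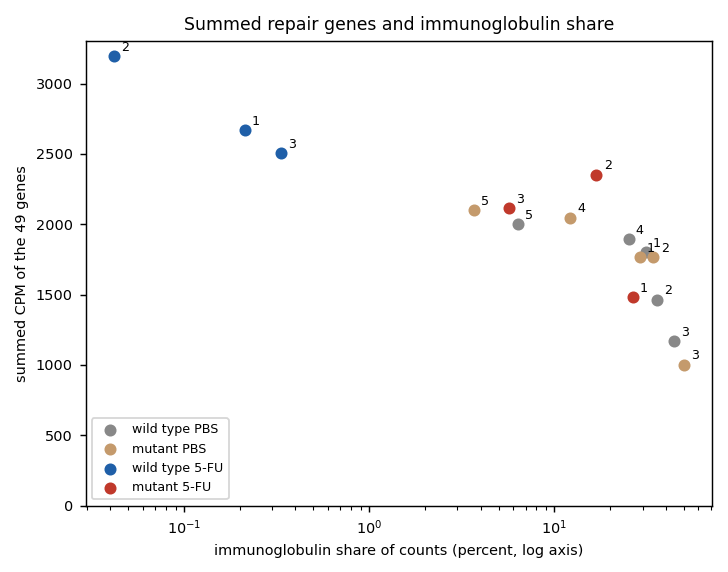
Summed CPM of the 49 genes (vertical axis, from 0) against the immunoglobulin share of counts (horizontal log axis) in each of 16 libraries, numbered by replicate and coloured by group. Wild-type 5-FU libraries sit at the lowest shares and the highest sums, 2505 to 3195 CPM, and the PBS replicate 3 libraries sit at the highest shares and the lowest sums, 1170 and 1001 CPM.

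Summed over the 49 genes, wild-type PBS libraries held 1800, 1464, 1170, 1892 and 2000 CPM and mutant PBS libraries 1767, 1766, 1001, 2048 and 2098 CPM. Wild-type 5-FU libraries held 2667, 3195 and 2505 CPM, all above every other library, and mutant 5-FU libraries 1482, 2351 and 2114 CPM. In each of the 4 groups the library with the highest immunoglobulin share had the lowest sum. The sums did not follow the share throughout. Mutant 5-FU replicate 2 (16.9%) held more than mutant 5-FU replicate 3 (5.69%). Between the PBS libraries with the highest and the lowest share of each genotype, replicates 3 and 5, 41 of 49 genes were higher in replicate 5 in wild type (median log2 ratio 0.93) and 43 of 49 in the mutant (1.09). Bard1 had the lowest of these ratios in both genotypes, -2.41 and -0.68, and the highest were those of Lig3 in wild type (2.95) and Fancd2 in the mutant (2.76). At a like share, mutant 5-FU replicate 3 (5.69%) held 2114 CPM, wild-type PBS replicate 5 (6.38%) 2000 CPM and mutant PBS replicate 5 (3.67%) 2098 CPM, 3 single libraries with no test.

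Transcript length moved with the wild-type comparison too. Over 5 equal bins of all tested genes by effective length, the median log2 fold change in wild type went from -0.97 in the shortest to 0.37 in the longest, and the 49 genes lay mostly in the longer bins, with 1, 7, 15, 12 and 14 from short to long. Within these bins the medians of the 49 were -0.02, 0.28, 0.42, 0.89 and 1.15, beside -0.97, -0.27, 0.04, 0.24 and 0.37 for all genes. With each library's trend with length removed, 27 of the 49 were called, all higher, among 28.0% of all genes. The 11 called genes had a median effective length of 2573 nucleotides and the other 38 a median of 2471.

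Other repair genes, a list of 93 outside the set, had 9 called higher and 0 lower in wild type after 5-FU, where 5.55% of all genes were called higher. The median was 0.42, and 31 of the 93 stood apart upward, beside 16.0% of all genes. Ddb1, a subunit of the damage-binding complex of nucleotide excision repair, rose from 161 ± 54.4 CPM (SD, n = 5) to 401 ± 105 CPM (n = 3), a log2 change of 1.32 (adjusted p = 0.0152). Dna2, a nuclease and helicase of end trimming, rose by 1.22 ± 0.30 (adjusted p = 0.0166). The others called were Neil3, Lig1, Eme1, Mms22l, Fignl1, Topbp1 and Rpa1. In the mutant 0 of the 93 were called. After 5-FU 1 was lower in the mutant than in wild type, Xpc, the first sensor of nucleotide excision repair, with 113, 128 and 105 CPM in wild type and 35.4, 51.1 and 31.6 CPM in the mutant (-1.55 ± 0.38, adjusted p = 0.0475).

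Cell cycle genes moved with the same groups. Of 30 listed, 11 rose in wild type after 5-FU and none fell, where 5.55% of all genes were called higher. They were 9 of 14 of the G2-M list and 2 of 16 of the S phase list. In the mutant 0 of 30 were called. Ccnb2, a mitotic cyclin, read 94.2, 101, 87.1, 83.9 and 90.9 CPM in wild-type PBS and 184, 181 and 191 CPM in wild-type 5-FU (1.02 ± 0.20, adjusted p = 0.00522). Kif11, a motor of the mitotic spindle, rose by 1.38 ± 0.33 (adjusted p = 0.0147). Mki67, a general marker of dividing cells, missed the threshold (0.75 ± 0.29, adjusted p = 0.0814). Summed over the G2-M list, wild-type PBS libraries held 1201 to 1311 CPM, wild-type 5-FU libraries 2120 to 2622 CPM and mutant 5-FU libraries 1107, 2211 and 2526 CPM. The part of cell division in the repair gene result was not tested.

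Levels of different genes are compared per length, in TPM as deposited. Apex1, the endonuclease that cuts where a base was removed, was highest in each of the 4 groups, with means of 136 TPM in wild-type PBS, 181 TPM in mutant PBS, 417 TPM in wild-type 5-FU and 226 TPM in mutant 5-FU. Parp1 and Xrcc6 came next in wild-type PBS, at 64.7 and 65.7 TPM. Bard1 and Lig4 were lowest in each group, 0.632 and 0.434 TPM in wild-type PBS. The checkpoint kinases split in wild-type PBS into Chek1 and Chek2, at 14.0 and 13.4 TPM, and Atm and Atr, at 3.40 and 3.22 TPM. Among the glycosylases Tdg stood at 24.2 TPM, Mbd4 at 12.0 TPM, Ung at 3.64 TPM and Smug1 at 3.00 TPM. TPM share a fixed total that immunoglobulin transcripts also fill, so levels are compared within a group only. For 8 of the 49 genes over 10% of the exon bases overlap exons of another gene on the opposite strand, most of all Apex1 (61.7%) and Lig3 (25.1%), with Rad54l at 15.4% and Fanca at 10.5%; whether counting used strand is not given in the sources used here.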

How the data were processed

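Sorted LSK cells gave RNA by the RNeasy Micro Kit and libraries by NuGEN Ovation Ultralow, per the labels' protocols. RSEM 1.3.1 and FastQC 0.11.2 with mm10/GRCm38 were used, per the submitters' processing notes; aligner and annotation release: not given in the sources used here. The authors deposited RSEM expected counts, which need not be whole, and TPM, scaled to length and to a fixed total, per the file headers.

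Expected counts were rounded. With edgeR 4.0.16, genes were filtered (filterByExpr, minimum count 10), leaving 16482, and libraries scaled by TMM factors from 0.508 to 1.37, which CPM use. The quasi-likelihood test (robust, 1 mean per group, 16 libraries) served 5 comparisons, with p adjusted over all genes tested and a threshold of 0.05. On simulated data the fit was tested with genes of known change. A count of 3 in a library came to 0.0798 to 0.272 CPM, a floor that covers counting error only.

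The 49 genes, their roles and the lists of other genes were chosen with earlier results of these data known. All 49 may be named. Values by library are given for up to 8 called genes with the smallest p (4 where fewer than 4 were called), the largest change, the glycosylases and the checkpoint kinases. Those of Bard1, Fancd2, Lig3 and Xrcc4 were added after their values were seen. Groups come from sample titles. Alternatives were DESeq2 1.42.0, limma 3.58.1 (voom), other scalings and filters, covariates, subsets of libraries and leaving out each library. Same-numbered libraries of the PBS groups deviated together (correlations 0.240 to 0.704). The main fit held no term for replicate numbers, so its genotype test under PBS is unpaired, and a replicate block was used in 1 alternative. The other groups were not taken to be paired. Digits of the sample codes that recur across treatments were used in 1 alternative. Gene positions and exon overlaps come from GENCODE M21 (GRCm38), promoters from RefSeq (GRCm38.p6).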

Additional observations from a re-analysis of the deposited data

Results flagged for a closer look

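Among 22 named genes, 44 sets of 5 PBS values were checked for a library far from the other 4 (gap to the nearest value over 0.71 of the range), which chance alone gives in about 1 of 20. In 5 sets a library stood out. In mutant PBS replicate 3, Mbd4 (15.15 CPM) and Tdg (25.19 CPM) were lowest. In wild-type PBS replicate 3, Parp2 was lowest (44.36 CPM) and Ung highest (23.04 CPM). Palb2 was highest in mutant PBS replicate 5 (20.35 CPM). The replicate 3 libraries held the highest immunoglobulin shares of their groups, 44.2% (wild type) and 50.2% (mutant), and mutant replicate 5 the lowest, 3.67%; the part of that share in these values was not tested.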

How the results depend on the processing

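The count of 11 called genes in wild type after 5-FU (14.9% of all genes called) became 22 with DESeq2 (29.1%), 29 with limma-voom and quality weights (42.4%), 27 with the length trend removed (28%), 16 with RLE scaling (15.5%), 16 with immunoglobulin genes removed before scaling (15.7%), 16 with only the groups compared (15.1%), 8 without a filter (6.18%) and 1 among libraries under 30% immunoglobulin (6.1%). It became 0 with the immunoglobulin share (0.14%) or the writing of the sample code (6.14%) as a covariate and 0 among libraries with recurring code digits (0.369%). Leaving out 1 library gave 0 to 16, with 3.06 to 19.8% of all genes called. With the replicate block it became 33 (44.4%), in the mutant after 5-FU 1 (Exo1, 6.15%) and between genotypes after 5-FU 3 (9.25%). Replicate numbers were not taken to pair these groups, and the block changed no other count. Limma-voom called 2 in the mutant after 5-FU (9.38%). Between genotypes after 5-FU, DESeq2 called 2 (8.12%), limma-voom 17 (30.8%), the groups alone 7 (14.1%) and libraries under 30% immunoglobulin 11 (17%). Counts under PBS and for the interaction were 0 in every fit run. The 3 alternatives chosen after seeing the data are the length trend, the limit of 30% and the recurring code digits.

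Among the genes named in a comparison for their p, signs reversed with the immunoglobulin share as covariate and, for Atr in the interaction (0.16), among libraries with recurring code digits. With that covariate the values were as follows. In wild type after 5-FU the log2 estimates became -0.26 for Fanca, -0.67 for Brca1, -1.11 for Brca2, -0.59 for Palb2, -0.16 for Rad54l, -0.001 for Blm, -1.36 for Exo1, -0.63 for Atr, -1.29 for Msh6 and -0.59 for Tdg. Between genotypes after 5-FU they became 0.49 for Atr, 0.69 for Brca1 and 1.35 for Msh6, and for the interaction 0.48 for Atr, 0.59 for Palb2, 0.88 for Brca1 and 0.81 for Rad50. None of these passed the threshold, and the cause was not tested. Between treatments in wild type and between genotypes after 5-FU, the immunoglobulin shares of the groups compared do not overlap. Fits within 1 writing of the sample code were not run after 5-FU between genotypes or for the interaction, since the genotypes share none there.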
